A study of Rattus norvegicus with 22 samples.

Results

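The urea cycle turns ammonia into urea in the liver. Described here are 8 genes of it in rat liver, namely Nags, Cps1, Otc, Ass1, Asl and Arg1, which encode its enzymes, and Slc25a15 and Slc25a13, which encode mitochondrial carriers that serve it. They were chosen by gene symbol from a table of 14971 genes, and all 8 were found and passed the minimum level for testing. Liver RNA of 22 rats (Rattus norvegicus) was sequenced in a design with 2 factors, exposure to ozone or air and hepatic vagotomy or sham surgery. Hepatic vagotomy severs the branch of the vagus nerve that runs to the liver. The groups were 5 vagotomised rats exposed to ozone, 6 sham rats exposed to ozone, 6 vagotomised rats exposed to air and 5 sham rats exposed to air, each library from its own rat per the labels. All rats had surgery at 12 weeks of age, then 5 to 6 days of recovery. They breathed ozone at 1.0 ppm or air for 4 hours on 1 or 2 days, and necropsy followed within 2 hours. The labels give neither strain nor sex, nor which rat had 1 and which 2 days of exposure, so a 1-day and a 2-day response cannot be told apart. The replicate numbers count rats within a group.

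In the cycle, ammonia enters in the mitochondria of hepatocytes. N-acetylglutamate, made by the synthase Nags, is the required activator of Cps1, which joins ammonia and bicarbonate to carbamoyl phosphate. Otc transfers that group to ornithine to give citrulline. In the cytosol Ass1 joins citrulline with aspartate, Asl splits the product into arginine and fumarate, and Arg1 releases urea and returns ornithine. Slc25a15 exchanges this ornithine for citrulline across the inner mitochondrial membrane, and Slc25a13 (citrin) exports aspartate from mitochondria in exchange for glutamate. The cycle is strongest in hepatocytes near the portal vein, and its enzymes are known to be induced by glucagon, glucocorticoids and high protein intake.

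Libraries held 14098863 to 21141337 reads assigned to genes. Values are normalised counts, the authors' read counts divided by 1 size factor per library. They are not corrected for gene length, so levels are compared between rats and not between genes. The liver label was checked against 7 hepatocyte markers, including Alb and Apoa1, which summed to 2099930.0 normalised counts or more in every ozone library and 2293920.0 or more in every air library. Of the libraries, 4 stood apart by low 5.8S ribosomal RNA, with 38.1 to 179.5 normalised counts. The other 18 libraries had at least 342. The low ones were vagotomised ozone replicate 1, sham ozone replicate 3 and vagotomised air replicates 1 and 5. Calls that rest on them are given with and without them, as is the overlap of ozone and air ranges of the 8 genes within each surgery group. Group means, the order of the groups and the likeness between the 8 genes are given with all libraries only.

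Transcripts of most of the cycle were higher after ozone, and the increase was uneven along it. Slc25a15, the ornithine carrier, rose 3.97-fold in vagotomised rats (95% interval 3.15 to 4.99) and 4.66-fold in sham rats (3.70 to 5.87). The cytosolic enzymes Ass1, Asl and Arg1 rose 1.69-fold to 2.58-fold in vagotomised rats and 2.16-fold to 2.47-fold in sham rats. The mitochondrial enzymes Cps1 and Nags rose 1.43-fold and 1.52-fold in sham rats, and Slc25a13 fell to 0.837 of its level in sham air rats. The calls of Cps1 and Slc25a13 were lost in some alternative fits. In vagotomised rats Cps1, Nags and Slc25a13 did not pass in the main fit. For Otc, no change passed in the main limma fit, and some alternative fits called a rise in sham rats. Changes below are log2 fold changes with their standard error (SE) from limma, fitted over 12424 genes and all 22 libraries. The words rose and fell are kept for genes with a Benjamini-Hochberg adjusted p under 0.05.

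In vagotomised rats 4 of the 8 genes rose, 0 fell and 4 did not pass, while 21.1% of all genes tested passed in that comparison, 11.4% upward and 9.63% downward. In sham rats 6 rose, 1 fell and 1 did not pass, while 28.4% of all genes tested passed, 14.6% upward and 13.8% downward. The median log2 change of the 8 genes was 0.61 in vagotomised rats and 0.86 in sham rats, and that of all genes tested was -0.01 in vagotomised and 0.01 in sham rats. The split of all calls in sham rats depended on scaling. Rises made up 51.3% of calls as deposited and 33.9% with columns rescaled to equal totals, which put the median change of all genes at -0.09. The 8 genes together took 1.62% to 2.00% of all normalised counts in vagotomised ozone libraries and 1.33% to 2.04% in sham ozone libraries, against 0.884% to 1.28% in vagotomised air and 0.821% to 1.34% in sham air libraries. RNA came from whole pieces of liver, in which fewer cells of a type and less RNA per cell cannot be told apart.

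**Figure D1:**
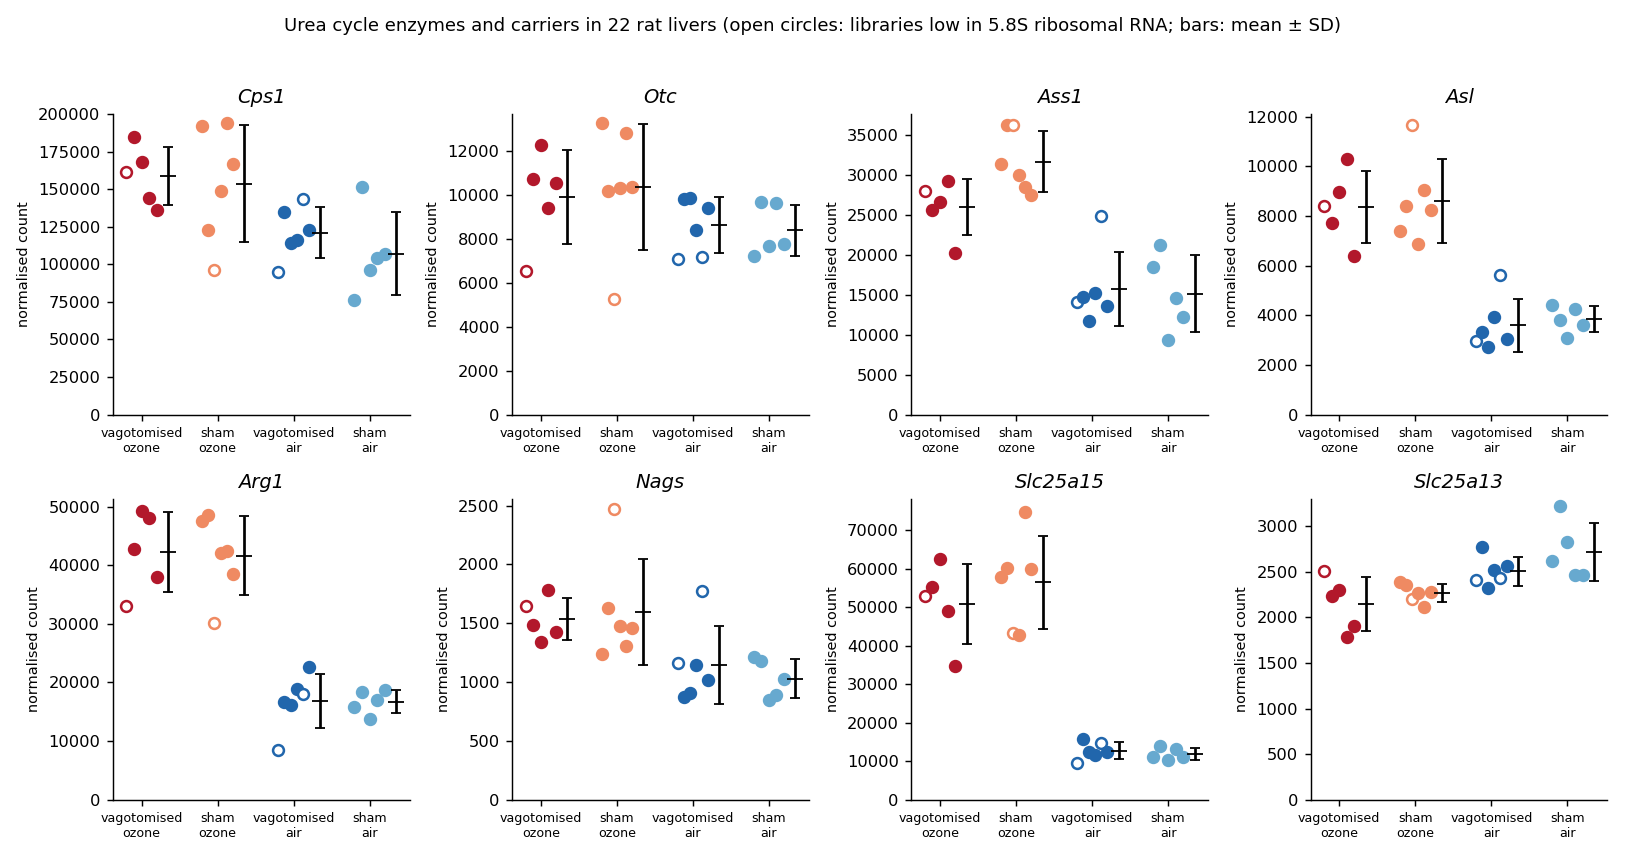
Normalised counts (vertical axes from 0) of the 8 genes in each of 22 libraries, grouped along the horizontal axis as vagotomised ozone, sham ozone, vagotomised air and sham air, with the mean and SD of each group as bars. Open circles are the 4 libraries low in 5.8S ribosomal RNA. All 11 ozone libraries lie above all 11 air libraries for Slc25a15, Asl and Arg1.

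Slc25a15 showed the largest change of the 8 genes in both surgery groups. It had 52967, 55239.8, 62651, 48924 and 34727 normalised counts in the 5 vagotomised ozone rats, and 42726 (lowest), 58926 (median) and 74826 (highest) in the 6 sham ozone rats. It had 9432 (lowest), 12408 (median) and 15906 (highest) in the 6 vagotomised air rats, and 11204, 13953, 10209, 13225 and 11225 in the 5 sham air rats. The lowest ozone library, at 34727, was thus above the highest air library, at 15906, and vagotomised ozone replicate 5 was the lowest of the ozone rats. Group means were 50902 ± 10328 in vagotomised ozone, 56487 ± 12089 in sham ozone, 12774 ± 2301 in vagotomised air and 11963 ± 1561 in sham air (SD, n = 5, 6, 6 and 5). The adjusted p was 2.22e-08 in vagotomised rats and 3.57e-09 in sham rats (limma), and the gene stood at place 4 by p among the 12424 genes in each comparison. RefSeq lists 1 pseudogene of Slc25a15 with no row of its own in the table. How reads shared with such copies were counted is not given in the sources used here. Slc25a2, a related mitochondrial ornithine carrier known from human, averaged 15.7 normalised counts over the 22 libraries and did not pass in either comparison (0.06 ± 0.31 in vagotomised rats and 0.39 ± 0.31 in sham rats).

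Ass1, which forms argininosuccinate, had 28022, 25693, 26697, 29269 and 20288 normalised counts in vagotomised ozone rats and 27530.1 (lowest), 30717 (median) and 36306 (highest) in sham ozone rats. In vagotomised air rats it had 11722 (lowest), 14417 (median) and 24908 (highest), and in sham air rats 18496, 21235, 9291, 14637 and 12179. In sham rats the ozone and air libraries did not overlap. In vagotomised rats they did, because air replicate 5, at 24908, exceeded ozone replicate 5, at 20288. Ass1 rose by 0.76 ± 0.18 in vagotomised rats (adjusted p = 0.00465, limma) and by 1.11 ± 0.18 in sham rats (adjusted p = 8.44e-05). RefSeq lists 2 pseudogenes of Ass1 with no row of their own in the table.

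Asl, the lyase that yields arginine, had 8412, 7738, 8951, 10289.8 and 6390.0 normalised counts in vagotomised ozone rats and 6893 (lowest), 8335 (median) and 11656 (highest) in sham ozone rats. It had 2709 (lowest), 3188 (median) and 5623 (highest) in vagotomised air rats, and 4406, 3824, 3089, 4247 and 3611 in sham air rats. Every ozone library was above every air library, and the narrowest gap was between 6390.0 in vagotomised ozone replicate 5 and 5623 in vagotomised air replicate 5. Asl rose by 1.24 ± 0.16 in vagotomised rats (adjusted p = 1.11e-05, limma) and by 1.16 ± 0.16 in sham rats (adjusted p = 1.56e-05).

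Arg1, the arginase that releases urea, had 33069, 42819.8, 49227, 48104 and 37949 normalised counts in vagotomised ozone rats and 30136 (lowest), 42325 (median) and 48654 (highest) in sham ozone rats. It had 8553 (lowest), 17381 (median) and 22609 (highest) in vagotomised air rats, and 15781, 18379, 13852, 16999 and 18697 in sham air rats. All ozone libraries were above all air libraries, and the lowest air value, 8553, belonged to vagotomised air replicate 1. Arg1 rose 2.58-fold in vagotomised rats (95% interval 1.99 to 3.35, adjusted p = 1.11e-05, limma) and 2.47-fold in sham rats (1.90 to 3.20, adjusted p = 1.22e-05). Ass1, Asl, Arg1 and Slc25a15 passed in both comparisons under each of 14 alternative processings and without each of the 22 libraries in turn.

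The mitochondrial enzymes are Cps1, Nags and Otc. Cps1, the entry enzyme, ranged from 136067 to 184549 normalised counts in vagotomised ozone rats and from 96247 to 194232 in sham ozone rats, against 94826 to 143330.0 in vagotomised air and 76225 to 151701 in sham air rats. With all libraries, ozone and air ranges overlapped in both surgery groups. The change was 0.40 ± 0.18 in vagotomised rats (adjusted p = 0.120, limma) and 0.51 ± 0.18 in sham rats (adjusted p = 0.0318). The rise of Cps1 in sham rats no longer passed under 5 of 14 alternative processings, with adjusted p from 0.0560 with the replicate number as a block to 0.132 with quantile normalisation. It was also lost when any one of sham ozone replicates 1, 5 and 6 or sham air replicates 1, 3, 4 and 5 was left out, with changes of 0.40 to 0.52 and adjusted p of 0.0505 to 0.101, while in vagotomised rats Cps1 passed with only those groups in the fit (adjusted p = 0.0392) or with array weights (adjusted p = 0.0205).

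Nags, the synthase of the Cps1 activator, ranged from 1341 to 1783 normalised counts in vagotomised ozone rats and from 1236 to 2471 in sham ozone rats, against 870.0 to 1771 in vagotomised air and 846 to 1209 in sham air rats. With all libraries, the ranges overlapped in vagotomised rats and lay apart in sham rats. Nags changed by 0.46 ± 0.17 in vagotomised rats (adjusted p = 0.0586, limma) and rose by 0.61 ± 0.17 in sham rats (adjusted p = 0.00991). In vagotomised rats it passed at 0.62 without the 4 libraries low in 5.8S ribosomal RNA (adjusted p = 0.00150). It also passed there without sham ozone replicate 3 (adjusted p = 0.0250) or vagotomised air replicate 5 (adjusted p = 0.00789). With all libraries in the fit, Nags passed in vagotomised rats with array weights (0.52, adjusted p = 0.00205, limma). The same held with log2 5.8S ribosomal RNA as a covariate (0.53, adjusted p = 0.00881).

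Otc, which makes citrulline, had 6559.8 to 12294 normalised counts in vagotomised ozone and 5249.9 to 13303 in sham ozone rats, against 7085 to 9879 in vagotomised air and 7242 to 9686 in sham air rats. With all 22 libraries, ozone held both the highest and the lowest values of Otc, so that air lay within the ozone range. The lowest ozone values, 5249.9 and 6559.8, came from libraries low in 5.8S ribosomal RNA. Its change was 0.18 ± 0.19 in vagotomised rats (95% interval -0.21 to 0.57, adjusted p = 0.550, limma) and 0.26 ± 0.19 in sham rats (-0.13 to 0.65, adjusted p = 0.328). Without the 4 libraries low in 5.8S ribosomal RNA it rose by 0.44 in sham rats (adjusted p = 0.00266), and without sham ozone replicate 3 alone by as much (0.44, adjusted p = 0.0260). With the 4 left out, Otc ran from 10198 to 13303 in sham ozone against 7242 to 9686 in sham air rats, without overlap. In vagotomised rats it still overlapped, from 9435 to 12294 in ozone against 8433 to 9879 in air. With all 22 libraries in the fit, Otc also rose in sham rats with array weights (0.39, adjusted p = 0.0214, limma). It rose there by 0.32 with log2 5.8S ribosomal RNA as a covariate (adjusted p = 0.0371).

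Slc25a13, the aspartate-glutamate carrier, moved the other way. It ranged from 1782 to 2512 normalised counts in vagotomised ozone rats and from 2108 to 2385 in sham ozone rats, against 2319 to 2774 in vagotomised air and 2464 to 3222 in sham air rats. With all libraries, the ranges overlapped in vagotomised rats, while all 6 sham ozone libraries were below all 5 sham air libraries. The change was -0.23 ± 0.09 in vagotomised rats (adjusted p = 0.0727, limma), and Slc25a13 fell by 0.26 ± 0.09 on the log2 scale in sham rats (adjusted p = 0.0368). The call in sham rats was lost with only the 2 groups in the fit (adjusted p = 0.0558). It was also lost without any one of sham ozone replicates 3, 4, 5 and 6 or sham air replicates 2 and 3 (-0.26 to -0.19, adjusted p = 0.0527 to 0.127), while in vagotomised rats it passed without ozone replicate 1 (-0.29, adjusted p = 0.0231) and without all 4 libraries low in 5.8S ribosomal RNA (-0.31, adjusted p = 0.0250). With all 22 libraries in the fit, Slc25a13 also passed in vagotomised rats with equal upper quartiles (-0.29, adjusted p = 0.0202, limma). It passed there with quantile normalisation (-0.27, adjusted p = 0.0356) and with array weights (-0.26, adjusted p = 0.0160) as well. RefSeq lists 1 pseudogene of Slc25a13 with no row of its own in the table.

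In the order of the 4 group means, both ozone groups stood above both air groups for 7 genes and below them for Slc25a13. Adjacent groups in that order had overlapping ranges, except between the lower ozone and the higher air group for Asl, Arg1 and Slc25a15. Within vagotomised rats those same 3 genes had ozone values that did not overlap with air, as did 11.7% of all genes tested. Within sham rats, with all libraries, Ass1, Asl, Arg1, Nags and Slc25a15 lay higher without overlap and Slc25a13 lower, beside 15.4% of all genes tested. With the 4 libraries left out, Otc lay higher without overlap in sham rats as well. The share of all genes without overlap was not computed for the remaining 18 libraries.

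The stretches before the transcription start are shown for Slc25a15, which rose most, for Ass1 and Asl, whose levels ran closest together, and for Slc25a13, which fell. They are the 250 bases before the start given by RefSeq for the rat build GRCr8, which differs from the build rn6 that the submitters used. RefSeq promoter sequences matched 7 of the 8 genes, and Arg1 was the other. Each is written 5′ to 3′ on the strand of its gene. The windows are chr16:76336620-76336869 (plus strand) for Slc25a15, chr3:35149480-35149729 (plus strand) for Ass1, chr12:32295658-32295907 (plus strand) for Asl and chr4:35328361-35328610 (minus strand) for Slc25a13. Capitals mark matches to the motifs named after the sequences.
Slc25a15: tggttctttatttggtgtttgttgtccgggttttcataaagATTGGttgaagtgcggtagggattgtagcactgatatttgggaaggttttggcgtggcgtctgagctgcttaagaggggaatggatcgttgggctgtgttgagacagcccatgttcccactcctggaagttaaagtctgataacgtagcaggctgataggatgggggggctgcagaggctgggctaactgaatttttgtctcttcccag
Ass1: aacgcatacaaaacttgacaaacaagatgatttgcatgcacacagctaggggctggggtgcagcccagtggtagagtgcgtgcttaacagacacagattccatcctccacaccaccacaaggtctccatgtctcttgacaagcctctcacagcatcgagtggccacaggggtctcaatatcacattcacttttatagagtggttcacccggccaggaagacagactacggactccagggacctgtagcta
Asl: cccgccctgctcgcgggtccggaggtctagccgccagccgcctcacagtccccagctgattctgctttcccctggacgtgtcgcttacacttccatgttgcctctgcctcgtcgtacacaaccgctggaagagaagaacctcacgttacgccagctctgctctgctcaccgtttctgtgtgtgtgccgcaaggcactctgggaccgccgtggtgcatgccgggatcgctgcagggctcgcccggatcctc
Slc25a13: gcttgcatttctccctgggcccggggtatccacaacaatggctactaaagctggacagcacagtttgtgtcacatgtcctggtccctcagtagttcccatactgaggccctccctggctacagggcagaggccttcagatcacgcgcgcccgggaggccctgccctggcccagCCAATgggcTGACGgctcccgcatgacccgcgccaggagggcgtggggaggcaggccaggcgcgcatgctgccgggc

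Both strands were searched for 4 motifs, and the share of 33469 rat promoter windows of the same length that hold each is given. The half-site of the glucocorticoid receptor, AGAACA, which reads TGTTCT on the opposite strand, was in 17.5% of windows. The half-site of the cAMP response element, TGACG, which reads CGTCA on the opposite strand, was in 18.2%. The C/EBP motif, TTGCNNAA, which reads TTNNGCAA on the opposite strand, was in 9.22%. The CCAAT box, which reads ATTGG on the opposite strand, was in 34.0%. The Slc25a15 window held a CCAAT box read as ATTGG 209 to 205 bases before the start. That window ends in letters like those of a splice acceptor, which precedes an exon, so it may not be the main promoter of Slc25a15 and the distance holds for the RefSeq start only. The Slc25a13 window held TGACG at 68 to 64 and CCAAT at 77 to 73 bases before the start, and the motifs did not overlap. None of the 4 motifs was in the windows of Cps1, Otc, Ass1, Asl and Nags. A match is a match of letters only, and these windows leave out more distant elements.

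Vagotomy was then compared with sham surgery within each exposure, which asked whether the hepatic vagus branch bore on these genes. None of the 8 passed. Under ozone, where 166 of 12424 genes passed (1.34%, of which 0.805% higher and 0.531% lower), the 8 changes, vagotomised over sham, ran from -0.29 ± 0.18 for Ass1 (95% interval -0.67 to 0.09, adjusted p = 0.498, limma) to 0.08 ± 0.18 for Cps1 (-0.28 to 0.45, adjusted p = 0.883). In air, where 0 genes passed with limma, edgeR or DESeq2 and 387 had an unadjusted p under 0.05, they ran from -0.13 ± 0.16 for Asl (-0.47 to 0.21) to 0.20 ± 0.18 for Cps1 (-0.16 to 0.57). The background share there was 0%. For Slc25a15 the interval was -0.48 to 0.18 under ozone and -0.25 to 0.42 in air, and changes within these intervals are not excluded. Averaged over exposures, where 14 genes passed (0.113%, of which 0.105% higher and 0.00805% lower), none of the 8 did.

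Whether the ozone change itself differed with surgery was tested as a difference of changes, vagotomised minus sham. It was -0.23 ± 0.23 for Slc25a15 (95% interval -0.70 to 0.24, adjusted p = 0.814, limma), -0.36 ± 0.26 for Ass1 (-0.89 to 0.18, adjusted p = 0.737) and 0.07 ± 0.26 for Arg1 (-0.46 to 0.60, adjusted p = 0.968). The other 5 lay between -0.15 for Nags and 0.09 for Asl. None of the 8 passed, nor did any of the 12424 genes with limma (0%) or edgeR, while 1147 had an unadjusted p under 0.05 and DESeq2 called 16. The lack of a call for Cps1, Nags and Slc25a13 in vagotomised rats therefore does not show that they differed from sham rats.

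**Figure D2:**
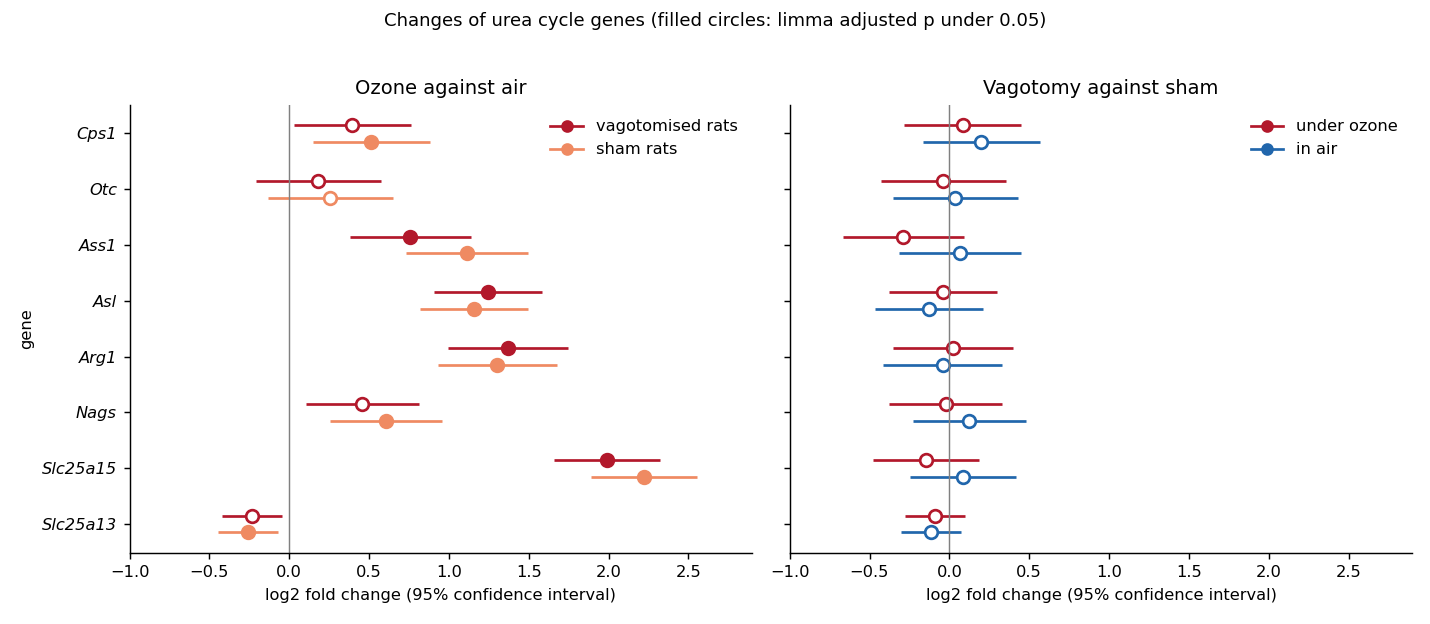
Log2 fold changes of the 8 genes (points) with 95% confidence intervals (lines) for ozone against air in vagotomised and sham rats (left) and for vagotomy against sham under ozone and in air (right); filled points passed an adjusted p under 0.05. Slc25a15 lies near 2 in both surgery groups on the left, and no point on the right is filled.

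Within each library, the level of each gene was then set against Cps1, a ratio that library scaling does not affect. Ozone raised Slc25a15 relative to Cps1 by 1.59 in vagotomised rats and by 1.71 in sham rats (log2, exact permutation p = 0.00216 in each, the smallest p that 462 splits allow, adjusted p = 0.0101 over 14 tests). The log2 ratio ran from -1.97 to -1.42 in the 5 vagotomised ozone libraries and from -1.80 to -1.03 in the 6 sham ozone libraries. It ran from -3.33 to -3.09 in the 6 vagotomised air libraries and from -3.44 to -2.77 in the 5 sham air libraries, without overlap of ozone and air. Arg1 gained on Cps1 by 0.97 in vagotomised rats and by 0.79 in sham rats (adjusted p = 0.0101 in each, exact permutation test).

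Asl gained on Cps1 by 0.85 in vagotomised rats (adjusted p = 0.0101, exact permutation test). In sham rats the difference for Asl was 0.64 (adjusted p = 0.112), and it passed at 0.81 without sham air replicate 1 (adjusted p = 0.0444). Ass1 did not pass, at 0.36 in vagotomised rats (adjusted p = 0.102) and 0.60 in sham rats (adjusted p = 0.127). It passed at 0.45 in vagotomised rats without air replicate 5 (adjusted p = 0.0417) and at 0.80 in sham rats without air replicate 1 (adjusted p = 0.0444). Slc25a13 lost ground against Cps1, by -0.63 in vagotomised rats (adjusted p = 0.0101) and -0.77 in sham rats (adjusted p = 0.0173). Otc and Nags were not told apart from Cps1, with differences of -0.21 and 0.06 in vagotomised rats and -0.26 and 0.09 in sham rats (adjusted p from 0.112 to 0.816, exact permutation tests). Without the 4 libraries low in 5.8S ribosomal RNA, 4 rats remained in each vagotomised group, for which the smallest exact p is 0.0286, and no adjusted p there was under 0.050.

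**Figure D3:**
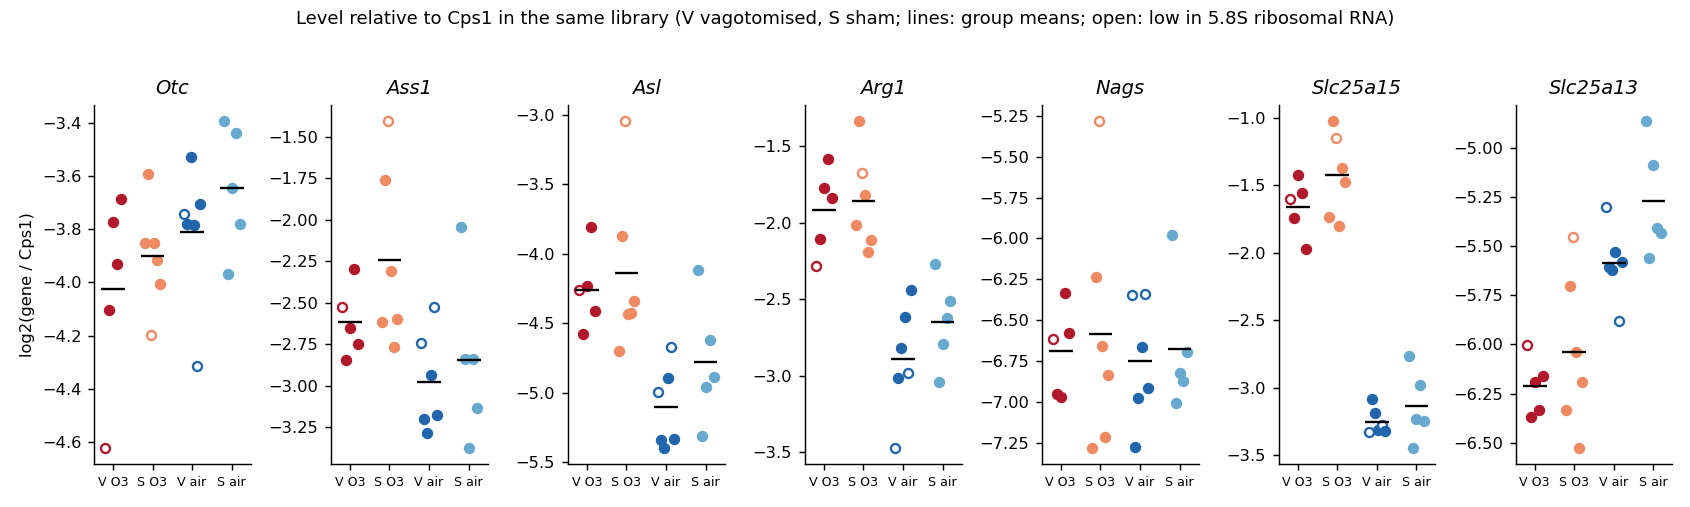
Log2 ratio of each gene to Cps1 in the same library, with a separate vertical scale for each gene, in vagotomised ozone (V O3), sham ozone (S O3), vagotomised air (V air) and sham air (S air); points are libraries and lines are group means. The ozone libraries of Slc25a15 lie between -1.97 and -1.03 and the air libraries between -3.44 and -2.77.

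Across the 22 libraries the 8 genes fell into a graded pattern. The likeness of 2 genes was measured as the root mean square difference of their log2 levels, each centred on its own mean. Ass1 and Asl, which act one after the other, were the closest pair (0.26), followed by Cps1 and Otc, which also act in sequence (0.28), and by Ass1 and Nags (0.31). Slc25a15 and Slc25a13 were farthest apart (1.20). Slc25a15 was nearer to Arg1 (0.48) and Asl (0.54) than to Cps1 (0.86) or Otc (0.99). These are descriptions over libraries that share exposure and depth.

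**Figure D4:**
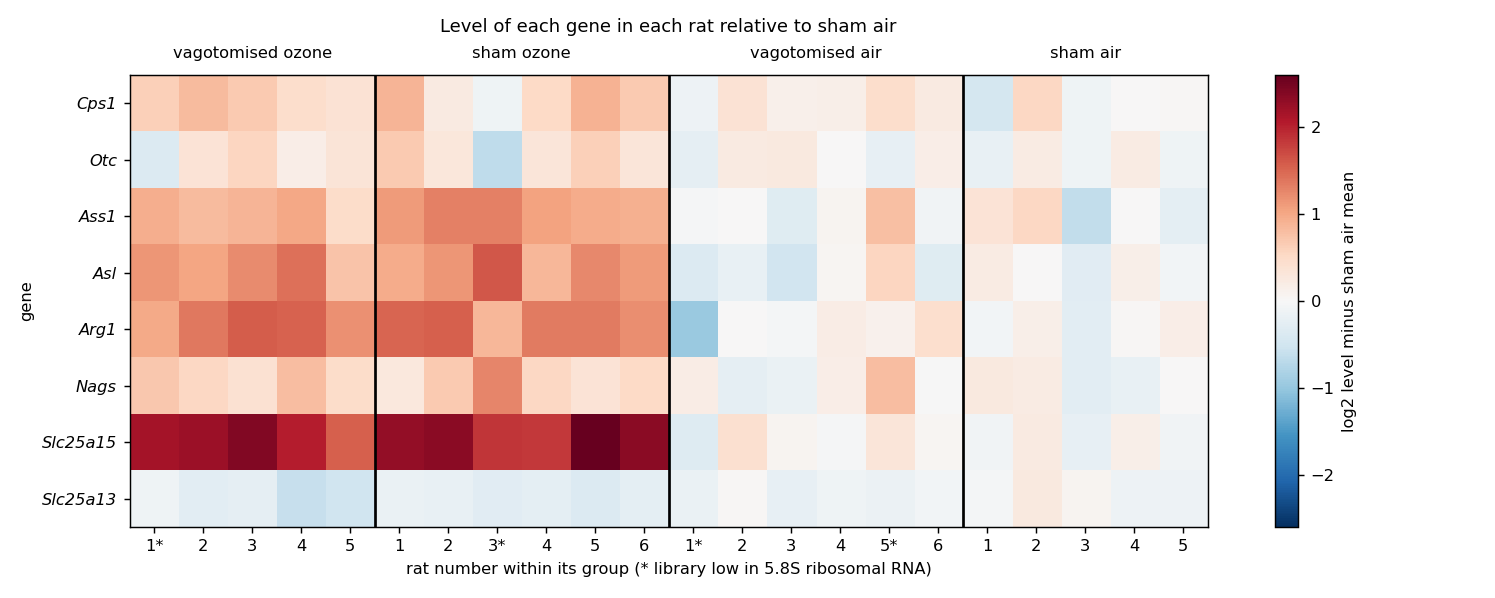
Log2 level of each gene (rows) in each rat (columns) minus its mean in sham air rats, in groups from left to right vagotomised ozone, sham ozone, vagotomised air and sham air; red is higher and blue is lower. Slc25a15 is raised in all 11 ozone columns, and Otc is lowest in the 4 libraries marked with an asterisk.

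Among 9640 other well expressed genes, those with the pattern most like Slc25a15 were Mtmr7, a myotubularin-family gene (0.19), Pnpla2, the adipose triglyceride lipase (0.24), and LOC100911615 (0.24). The values of LOC100911615 were 0.749 to 0.771 of those of Pnpla2 in every library, so those rows are not separate measurements. Arg1 ran closest to Slc38a4, an amino acid transporter (0.16), Ell2, an elongation factor (0.23), and Hnrnpdl (0.23). Genes close to Ass1 included Ahcy (0.23) and Agt, angiotensinogen (0.23), and Asl ran closest to Sephs2 (0.19), Agt (0.22) and Map1lc3b2 (0.23). Cps1 ran closest to Mylk (0.18), Pfkfb1 (0.19) and Itch (0.19), and Otc to Mgea5 (0.13), Ppm1b (0.13) and Ddx3 (0.14). The nearest to Nags were Eif6 (0.16), Tprg1l (0.16) and Bop1 (0.17), and the nearest to Slc25a13 were Jak1 (0.09), Cul4a (0.11) and Fggy (0.12). Without the 4 libraries low in 5.8S ribosomal RNA, all 3 neighbours of Slc25a15 were again its nearest, against 2 of 3 for Otc and Asl, 1 of 3 for Arg1 and Slc25a13 and 0 of 3 for Cps1 and Nags.

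The 4 libraries low in 5.8S ribosomal RNA also held the 4 lowest Otc values of all 22, at 5249.9 in sham ozone replicate 3, 6559.8 in vagotomised ozone replicate 1, 7085 in vagotomised air replicate 1 and 7196 in vagotomised air replicate 5. The other ozone libraries had 9435 or more and the other air libraries 7242 or more. In 3 of the 4, Arg1 was below all libraries of the same exposure outside the 4, at 33069 in vagotomised ozone replicate 1, 30136 in sham ozone replicate 3 and 8553 in vagotomised air replicate 1. Asl and Nags were above all libraries of the same exposure outside the 4 in sham ozone replicate 3 (11656 and 2471) and vagotomised air replicate 5 (5623 and 1771). The same libraries had 97.2 to 149 normalised counts over 57 small nucleolar RNAs, against 912 to 8035 in the other 18, and the part of RNA quality or library preparation in these values was not tested. Without the 4 libraries, 5 of the 8 genes rose and 1 fell in vagotomised rats, while 22.6% of all genes passed. In sham rats 7 rose and 1 fell, while 35.8% of all genes passed.

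Around the cycle, a list of 15 genes for the supply of ammonia, bicarbonate, glutamate and aspartate had 12 genes tested, of which 5 rose and 1 fell in vagotomised rats and 5 rose and 1 fell in sham rats. Of all genes tested, 21.1% passed in vagotomised and 28.4% in sham rats, and these shares also stand beside the lists below. The list median was 0.32 in vagotomised rats and 0.29 in sham rats. Got1, the cytosolic aspartate aminotransferase, had 18086 to 28429.5 normalised counts in vagotomised ozone and 19548 to 35150.2 in sham ozone rats, against 2685 to 6039 in vagotomised air and 2933 to 5974 in sham air rats. Every ozone library lay above every air library. It rose by 2.63 ± 0.21 in vagotomised rats (adjusted p = 2.22e-08, limma) and by 2.79 ± 0.21 in sham rats (adjusted p = 6.08e-09). Slc25a22, a mitochondrial glutamate carrier, rose by 1.35 ± 0.32 in vagotomised rats (adjusted p = 0.00344) and by 1.73 ± 0.32 in sham rats (adjusted p = 0.000260). Gls2, the liver glutaminase, rose by 0.61 ± 0.19 in vagotomised rats and by 0.57 ± 0.19 in sham rats.

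Other genes of that list differed in whether they passed. Gpt, the alanine aminotransferase, rose in sham rats (0.88 ± 0.18, adjusted p = 0.000964, limma) and measured 0.35 ± 0.18 in vagotomised rats (adjusted p = 0.191). Slc25a12, the second aspartate-glutamate carrier beside Slc25a13, rose in vagotomised rats (0.57 ± 0.15, adjusted p = 0.00866) and measured 0.01 ± 0.15 in sham rats. The difference between vagotomised and sham rats did not pass for Slc25a12 (0.55 ± 0.21, adjusted p = 0.437) or for Gpt (-0.53 ± 0.26, adjusted p = 0.547). Aqp8, a water channel that also passes ammonia, fell by 0.41 ± 0.10 in vagotomised rats and by 0.51 ± 0.10 in sham rats. Glud1, glutamate dehydrogenase, and Got2, the mitochondrial aspartate aminotransferase, did not pass. Without the 4 libraries low in 5.8S ribosomal RNA the rises in vagotomised rats were 3 in place of 5, since Gls2 and the glutamine transporter Slc38a3 no longer passed.

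Of 14 other genes of arginine and ornithine use 11 were tested, and 5 rose in vagotomised rats and 4 in sham rats, with none falling. With the 4 libraries low in 5.8S ribosomal RNA left out, 5 rose in vagotomised rats, and in sham rats 4 rose and 1 fell (Nos3, the endothelial nitric oxide synthase, -0.60 ± 0.21, adjusted p = 0.0333, limma). Odc1, the ornithine decarboxylase that starts polyamine synthesis, had 1290.2 to 1879.5 normalised counts in vagotomised ozone and 1312 to 1790.0 in sham ozone rats, against 810.3 to 1015 in vagotomised air and 802 to 982 in sham air rats, with no overlap of ozone and air. It rose by 0.81 ± 0.10 in vagotomised rats (adjusted p = 8.51e-06, limma) and by 0.74 ± 0.10 in sham rats (adjusted p = 1.51e-05). Azin1, which protects that enzyme from antizyme, rose by 0.93 ± 0.18 in vagotomised rats and by 1.12 ± 0.18 in sham rats. Slc25a29, a mitochondrial carrier of basic amino acids, rose by 1.55 ± 0.39 in vagotomised rats and by 2.83 ± 0.39 in sham rats, and Slc7a2, a cationic amino acid transporter of the plasma membrane, by 0.84 ± 0.23 in vagotomised rats and 1.47 ± 0.23 in sham rats. Gatm, which uses arginine to make guanidinoacetate, rose in vagotomised rats (0.81 ± 0.22, adjusted p = 0.0121). The difference of the ozone change between vagotomised and sham rats passed for none of the 11 genes tested. Oat, the aminotransferase that degrades ornithine, did not pass (0.57 ± 0.28 in vagotomised rats and 0.63 ± 0.28 in sham rats). Of 3 genes for the exit of urea and glycerol only Aqp9 was tested, and this channel fell by 0.48 ± 0.10 in vagotomised rats and by 0.44 ± 0.10 in sham rats.

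A list of 13 factors and hormone receptors reported to act on urea cycle genes split in both directions, with 2 rising and 2 falling in vagotomised rats and 5 rising and 3 falling in sham rats. Insr, the insulin receptor, also rose in sham rats without the 4 libraries low in 5.8S ribosomal RNA (0.29 ± 0.11, adjusted p = 0.0471, limma). Ppargc1a, a coactivator of the fasting response, had 137 to 558 normalised counts in vagotomised ozone and 437 to 863 in sham ozone rats, against 56.2 to 155 in vagotomised air and 65.1 to 132 in sham air rats. It overlapped between ozone and air in vagotomised rats and did not in sham rats, and rose by 1.48 ± 0.32 in vagotomised rats (adjusted p = 0.00185, limma) and by 2.71 ± 0.32 in sham rats (adjusted p = 1.59e-06). Crtc2, a coactivator of the cAMP response, rose by 0.32 ± 0.09 in vagotomised rats and by 0.59 ± 0.09 in sham rats. Creb1 and Prkaca, also of the cAMP response, fell in sham rats without the 4 libraries low in 5.8S ribosomal RNA. Their changes were -0.99 ± 0.28 (adjusted p = 0.00868, limma) and -0.29 ± 0.09 (adjusted p = 0.0170). In that fit 6 of the 13 genes rose in sham rats, among them the Krüppel-like factor Klf15 (0.84 ± 0.20, adjusted p = 0.00271, limma). The falls there numbered 3, as with all libraries, and were Creb1, Prkaca and Nr3c1. Nr3c1, the glucocorticoid receptor, fell by 0.49 ± 0.15 in vagotomised rats and by 0.70 ± 0.15 in sham rats. Gcgr, the glucagon receptor, fell by 0.38 ± 0.12 in vagotomised rats (adjusted p = 0.0286) and measured -0.11 ± 0.12 in sham rats.

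Foxo1, a factor of the insulin response, and Hnf4a, a hepatocyte factor, rose in sham rats (1.49 ± 0.30 and 0.69 ± 0.11, adjusted p = 0.000641 and 6.56e-05, limma). In vagotomised rats they measured 0.65 ± 0.30 and 0.25 ± 0.11 and did not pass. The difference of the ozone change between vagotomised and sham rats passed for none of the 13 factors and receptors. Under ozone Hnf4a was lower in vagotomised than in sham rats (-0.55 ± 0.11, adjusted p = 0.0199), the single gene of these lists that passed in that comparison with all libraries. When the 4 libraries low in 5.8S ribosomal RNA were left out, Klf15, a Krüppel-like factor (-1.12 ± 0.21, adjusted p = 0.0163), and Pck1, phosphoenolpyruvate carboxykinase (-0.66 ± 0.17, adjusted p = 0.0483), were lower in vagotomised rats as well. None of Sirt3, Sirt5 and Lonp1, which encode mitochondrial enzymes that act on Cps1 or Otc protein, passed in either ozone comparison.

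**Figure D5:**
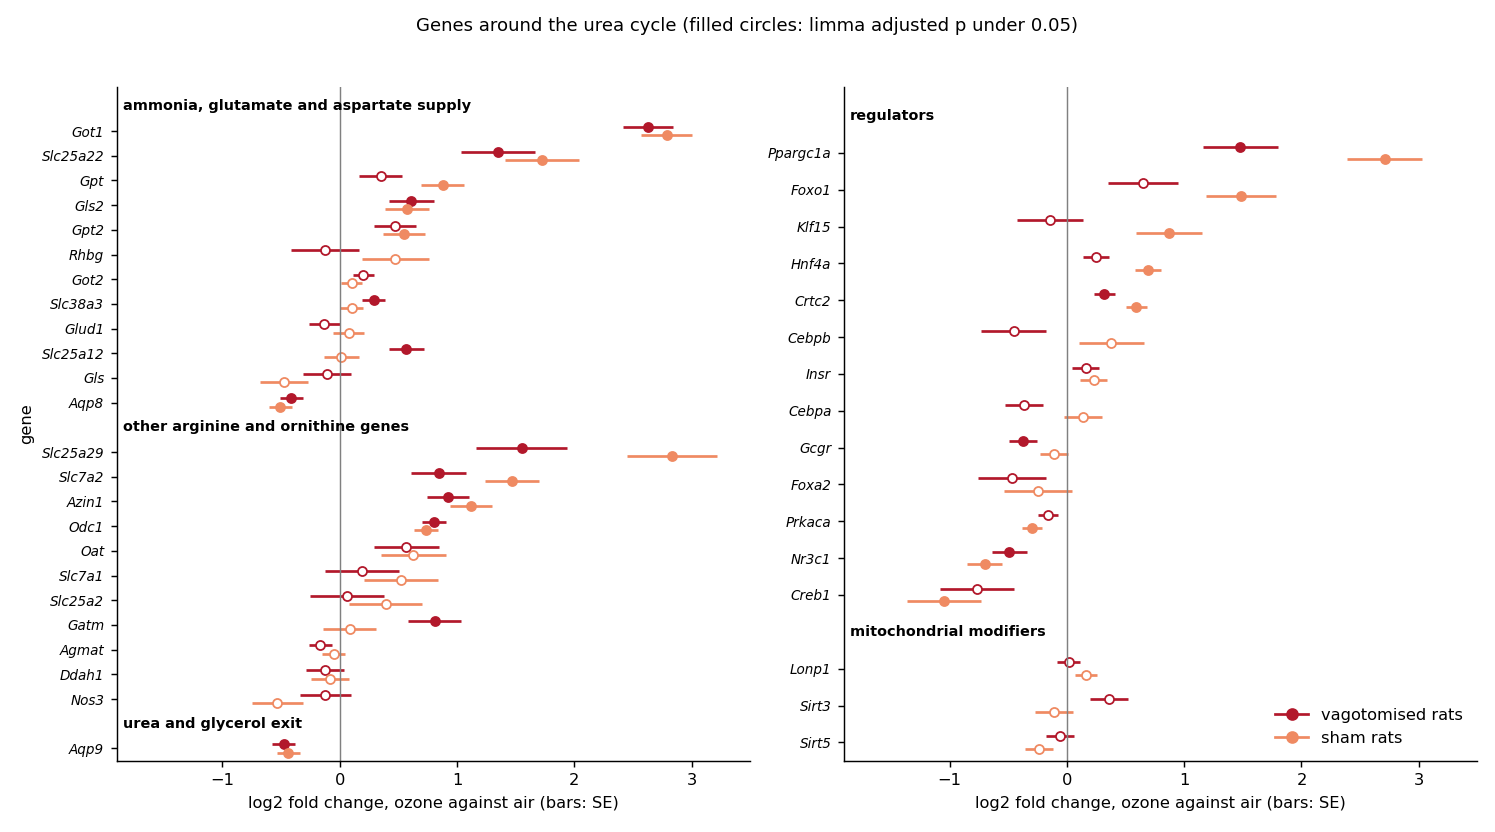
Log2 fold change of ozone against air (points, with SE as lines) in vagotomised and sham rats for tested genes of supply, arginine and ornithine use and exit (left) and for regulators and mitochondrial modifiers (right); filled points passed an adjusted p under 0.05. Got1 lies above 2 in both surgery groups, and Aqp8, Aqp9 and Nr3c1 lie below 0 in both.

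Markers of where hepatocytes sit in the lobule were set beside these results. Of 6 periportal markers outside the cycle, 3 rose and 2 fell in vagotomised rats and 4 rose and 1 fell in sham rats. Hal, histidine ammonia lyase, rose by 0.79 ± 0.13 in vagotomised rats and by 0.89 ± 0.13 in sham rats, and Sds, serine dehydratase, by 3.65 ± 0.46 in vagotomised rats and 4.58 ± 0.46 in sham rats. Cdh1, E-cadherin, fell by 0.64 ± 0.11 in vagotomised rats and by 0.57 ± 0.11 in sham rats. The summed level of the 6 ran from 56068 to 108580.0 in vagotomised ozone and from 73811 to 139172 in sham ozone libraries, against 86480.5 to 129657 in vagotomised air and 73849 to 90896 in sham air libraries. Most of that sum was Pck1, so it says little of the other markers. Pck1 averaged 53495 ± 16519.9 normalised counts in vagotomised ozone and 73534 ± 20933 in sham ozone rats, against 82801 ± 15805 in vagotomised air and 66048 ± 8588 in sham air rats (SD, n = 5, 6, 6 and 5). It fell by 0.66 ± 0.19 in vagotomised rats (adjusted p = 0.0138, limma) and measured 0.12 ± 0.19 in sham rats (adjusted p = 0.676). No periportal marker passed for the difference of the ozone change between vagotomised and sham rats. Of 9 pericentral markers tested, 1 fell in vagotomised rats (Rgn, -0.40 ± 0.10) and 1 rose in sham rats (Cyp2e1, 0.76 ± 0.24). Of all genes tested, 21.1% passed in vagotomised and 28.4% in sham rats. With the 4 libraries low in 5.8S ribosomal RNA left out, Gls2 no longer passed in vagotomised rats, and Rgn (-0.26 ± 0.09) and Rnf43 (-0.56 ± 0.21) fell in sham rats. The part of a shift between these zones in the urea cycle results was not tested.

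Markers of the cell types of liver were set beside the urea cycle genes as well. Of 7 hepatocyte markers 1 rose in vagotomised rats (Apoa1, 0.37 ± 0.12) and 1 in sham rats (Hnf4a), and of 5 endothelial markers 1 rose in vagotomised rats (Lyve1, 0.51 ± 0.14). Of 7 Kupffer cell markers 0 passed in vagotomised rats and 1 fell in sham rats (Cd68, -0.64 ± 0.24), with sums of 4015 to 8518 in vagotomised ozone and 4351 to 5827 in sham ozone libraries, against 4140.5 to 6862 in vagotomised air and 4382 to 5696 in sham air libraries. Of 7 stellate cell markers 0 passed in vagotomised rats, while in sham rats Dcn rose (1.27 ± 0.35) and Col3a1 fell (-0.80 ± 0.27). None of 3 cholangiocyte, 2 lymphocyte, 1 neutrophil and 2 erythroid markers tested passed in either comparison. By comparison, 21.1% of all genes tested passed in vagotomised and 28.4% in sham rats. The difference of the ozone change between vagotomised and sham rats passed for none of these cell type markers. After omission of the 4 libraries low in 5.8S ribosomal RNA, Apoa1 no longer passed and the stellate cell marker Lrat fell in vagotomised rats (-0.60 ± 0.20), while the Kupffer cell marker Adgre1 (-0.49 ± 0.17) and the endothelial marker Stab1 (-0.41 ± 0.15) fell in sham rats. No marker in the table was at 0 in all libraries of a group.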

How the data were processed

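Liver RNA of 22 rats was sequenced from 10 to 20 mg of tissue per rat, and all 22 columns of the deposited table were used, 1 per rat. The deposited values are a signal per gene, which the authors made by dividing read counts by a size factor of the library. The submitters' processing notes name the genome build rn6 and, with no versions, the tools DESeq, DESeq2, Partek and STAR. Every value (100%) was a whole multiple of 1 step per library within a tolerance of 0.001, which gave back read counts. Strand and the treatment of shared reads are not given in the sources used here.

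Values were analysed as log2(normalised count + 1) for the 12424 of 14971 genes with a mean of at least 10. limma 3.58.1 in R 4.3.3 fitted 4 group means over all 22 libraries, with an intensity trend, two-sided tests and Benjamini-Hochberg adjustment over all genes tested. Since the labels describe each sample as 1 rat, p-values measure the spread between rats. Ratios to Cps1 were compared with exact two-sided permutation tests over libraries. Intervals are at 95%. The alternatives included edgeR 4.0.16 (quasi-likelihood) and DESeq2 1.42.0 on the recovered counts, other scalings, pseudocounts and minimum levels, the replicate number as a block, and leaving out each library. The procedure was tested on simulated data. Libraries of a group were checked for copies over 50 pairs, with chi-square at least 9.30 times its degrees of freedom, so none were merged. Python 3.11.15 with matplotlib 3.10.9 drew the figures.

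The 8 genes, the gene lists and the libraries low in 5.8S ribosomal RNA (under 200 normalised counts) were chosen with earlier results of these data known. Of each list, up to 4 genes with the smallest p in each ozone comparison were named, and a few others after their values were seen. The genes most like a member were the 3 with the smallest root mean square difference, of which 1 for Ass1 is not reported here. Promoter sequences came from RefSeq for GRCr8, and no other coordinates are given because the table carries none.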

Additional observations from a re-analysis of the deposited data

Results flagged for a closer look

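In 32 sets of a gene and a group, 3 values lay far from the rest of their group by Dixon's test, and chance gives about 1 in 20. Nags in sham ozone replicate 3 was 2471 normalised counts, against 1236 to 1634 in the other 5 rats of that group. Nags in vagotomised air replicate 5 was 1771, against 870.0 to 1164 in the others. Ass1 in vagotomised air replicate 5 was 24908, against 11722 to 15219 in the others. Both libraries are among the 4 low in 5.8S ribosomal RNA, whose part in these values was not tested.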

How the results depend on the processing

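The calls of Ass1, Asl, Arg1 and Slc25a15 in both ozone comparisons and of Nags in sham rats held under 14 processings and without each library, and no change of the 8 genes that passed reversed. For ozone against air in vagotomised rats, array weights gave 3962 genes and 7 of the 8 members, against 2619 and 4. In sham rats 2972 to 3649 genes passed with 1 library left out. For vagotomy under ozone, the 166 genes became 86 with quantile normalisation, 366.0 with DESeq2, 14 with only the groups compared, 270 with array weights, 272 without the 4 libraries low in 5.8S ribosomal RNA, 322 with log2 5.8S ribosomal RNA as a covariate and 19 to 217 with 1 library left out. The lowest counts came without vagotomised ozone replicates 2 (25), 3 (60.0), 4 (76) and 5 (21) or sham ozone replicates 1 (20.0) and 2 (19). For the difference of the ozone changes, the 0 genes became 16 with DESeq2, 13 with array weights and 0 to 1 with 1 library left out (1 without sham ozone replicate 4, vagotomised air replicate 2 or sham air replicate 5). For the average over exposures, the 14 genes became 37 with no minimum count, 3 with a minimum mean of 50, 36 with edgeR, 114 with DESeq2, 42 with array weights, 25 without the 4 libraries and 11 to 35 with 1 library left out (35 without vagotomised ozone replicate 4). The fit with the replicate number as a block gave 4 there, 3306 genes in sham and 2490 genes in vagotomised rats for ozone, and 164 for vagotomy under ozone. It ended the call of Cps1 in sham rats (0.50, adjusted p = 0.0560, limma). Replicate numbers were not taken to pair rats. Deviations from the group mean had a median r of 0.025 in 31 same-numbered pairs and 0.045 in other pairs between groups. In 10 of the 31 pairs r was over 0.1 (range -0.49 to 0.61). Without the 4 libraries the ratios to Cps1 in vagotomised rats were 0.98 for Asl, 0.90 for Arg1, 1.55 for Slc25a15 and -0.68 for Slc25a13, where 4 against 4 rats left a smallest adjusted p of 0.050. With 1 library left out, the ratio of Ass1 to Cps1 was 0.28 to 0.45 in vagotomised and 0.43 to 0.80 in sham rats, and that of Asl was 0.42 to 0.81 in sham rats. Rises made up 42.3% of calls in vagotomised rats with equal upper quartiles, against 54.3% as deposited, and for vagotomy under ozone 85.5% with equal totals, against 60.2%. The causes of these shifts were not tested. The lowest value of any of the 8 genes was 846 normalised counts, and groups held 5 to 6 rats.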
